A study of Caenorhabditis elegans with 14 samples.

Results

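The transcripts of wild-type early embryos of the nematode Caenorhabditis elegans were described by level in 3 RNA sequencing libraries, out of 14 in the series. The 3 are all libraries labelled with the genotype N2 Bristol, the standard laboratory strain, and they stand for embryos that were not mutant for any gene of the study. Cultures were synchronized and kept at 20 °C. The other 3 genotypes of the series, hpl-2(tm1489), hpl-2-FFAA(px112) and met-2(n4256) hpl-2(tm1489) over the hT2 balancer, entered here only for the spread between their own replicates. No contrast was set, so all values are levels and no gene is called changed. The labels call the embryos early and give no time after fertilization. A further label names the cells as yeast, against the organism, stage and genotype labels, and the worm gene identifiers in the table fit the latter. The 3 libraries held 5846490, 5883420 and 6032200 counts, and 13372, 13379 and 13334 of the 20392 genes in the table had at least 1 count in them. A gene with 0 counts in all 3 could still have up to 3 counts in the pooled 17762110, or 0.169 counts per 1000000 counts (CPM). Such limits cover counting error only.

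The worm embryo begins with RNA loaded into the oocyte by the mother. Its first cells are set apart largely by maternal RNA-binding, polarity and signalling proteins, and embryonic transcription starts during the early cleavages, in somatic cells first. Lineage-specific transcription factors then commit cells to gut, muscle, skin, pharynx or nerve, and the structural genes of these tissues follow later. In RNA from whole embryos, fewer cells of a type and less RNA per cell cannot be told apart, and maternal and newly made copies of a transcript are counted together.

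About the same number of genes had a count in each library, and counts were spread unevenly over genes. A gene was called detected with at least 1 count in each of the 3 libraries, which held for 11651 genes, or 57.1% of the table. No count in any library was found for 5115 genes, or 25.1%, and 3626 genes had counts in 1 or 2 libraries. Levels are compared between genes per length: counts were divided by the deposited gene width and scaled to a sum of 1000000 per library (TPM). The median detected gene stood at 26.1 TPM, and the highest 10% of detected genes began at 190.8 TPM, which 5.72% of all genes reached. Over all genes, undetected ones included, the median was 0.912 TPM, and 28.6% of them lay above the median of detected genes. Medians of gene lists also include undetected members. Between 100 and 1000 TPM lay 2449 genes with 60.8% of all counts, and 88 genes above 1000 TPM held another 15.3%. At the other end, 1707 detected genes were under 1 TPM and held 0.0987% of counts. The 100 most abundant genes by CPM took 19.5%, 19.5% and 19.5% of counts in replicates 1, 2 and 3, and 711 genes took 50%. Of 664 pseudogenes in the annotation 301 had no count (45.3%), against 24.0% of protein-coding genes.

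**Figure D1:**
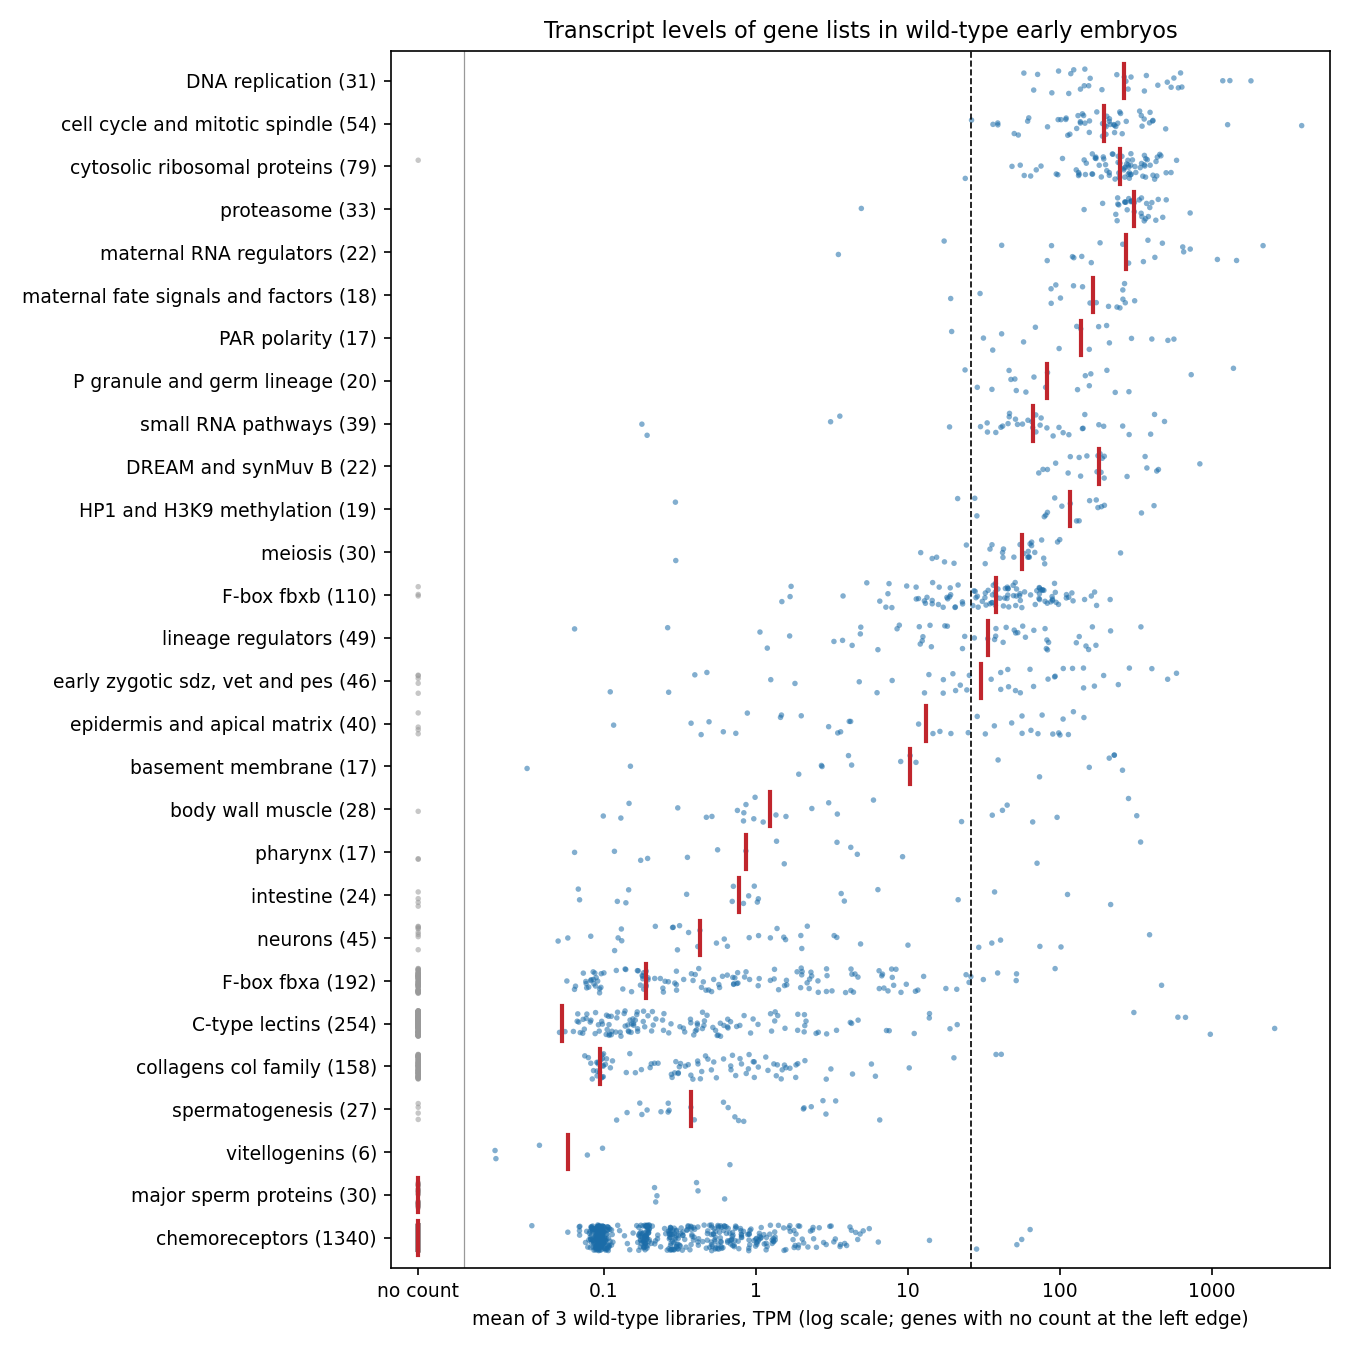
Mean TPM over 3 wild-type libraries (log scale) of each member of 28 gene lists, with the number of members in brackets; grey points at the left edge have no count, red bars are list medians and the dashed line is the median of detected genes (26.1 TPM). Medians lie to the right of the line for DNA replication (267 TPM) and maternal RNA regulators (272 TPM), and at the left edge for sperm proteins and chemoreceptors.

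The most abundant messages were those of histones, a translation elongation factor, a cyclin, tubulin and the mitochondrial genome. The highest nuclear gene per length was the histone gene his-59 (WBGene00001933, chromosome IV), at 10868, 10975 and 10751 TPM in replicates 1 to 3. Close to it were his-60 at 9846 ± 269 TPM (SD, n = 3, as in all values given with ±), his-62 at 9683 ± 88.3 TPM and eef-1A.1, which encodes the elongation factor that brings tRNA to the ribosome, at 9647 ± 77.2 TPM. The ranges of these 3 genes over the libraries overlapped, while his-59 lay above them in every library. Of the 20 genes of highest TPM, 10 were histone genes of the his series, among them the linker histone his-24 on the X chromosome at 3981 ± 141 TPM. The histone variant H2A.Z gene htz-1 reached 2973 ± 13 TPM. The other members of this group were hmg-1.1, an HMG-box chromatin protein, at 5210 ± 91.3 TPM, the small heat shock protein gene sip-1 at 5197 ± 220 TPM, Y82E9BR.3 at 4473 ± 53.1 TPM, the mitotic cyclin gene cyb-3 at 3921 ± 58.7 TPM, the caveolin gene cav-1 at 2863 ± 101 TPM, the adenine nucleotide carrier gene ant-1.1 at 2823 ± 53.9 TPM and the beta-tubulin gene tbb-2 at 2738 ± 23.6 TPM. Ranked by CPM, which favours long transcripts, the 20 highest also held the topoisomerase gene top-2 (2632 ± 31.9 CPM), the spliceosome gene prp-8 (2587 ± 36.4 CPM) and the chromatin remodeller chd-7 (2105 ± 34.6 CPM), all long genes. By TPM these ranked 103, 195 and 407. Of these, hmg-1.1, sip-1, Y82E9BR.3, htz-1 and cav-1 belong to no list. Further high genes outside every list were smo-1, which encodes SUMO, at 2173 ± 43.4 TPM, lgg-1, an autophagy gene, at 1936 ± 28 TPM and the linker-histone-like gene hil-2 at 1603 ± 28.6 TPM.

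**Figure D2:**
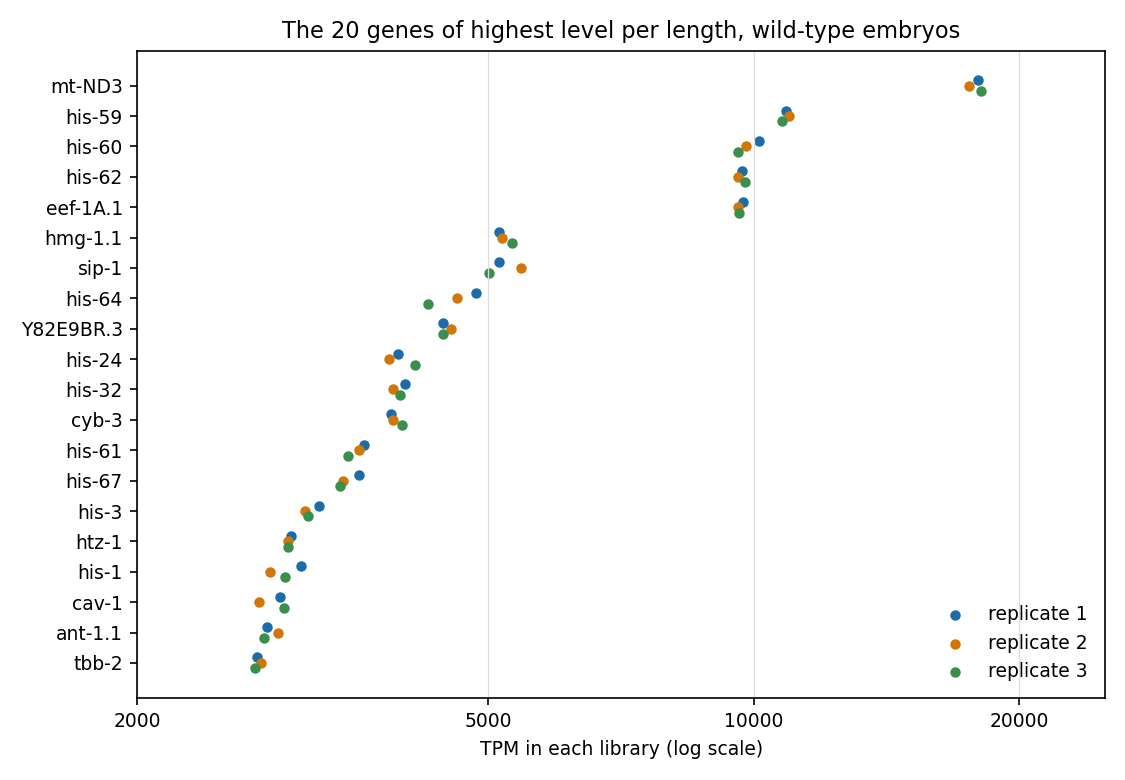
TPM (log axis) of the 20 genes of highest mean TPM in each of 3 wild-type libraries, a point per library. The 3 points of a gene lie close together, and the mitochondrial ND3 gene stands apart at 17868 TPM.

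The highest value of all was that of the mitochondrial ND3 gene (mt-ND3, WBGene00010966), with 177464, 174455 and 183647 counts, 3.02% ± 0.0434 of each library. Its deposited width is 2855 bases, whereas the annotated gene spans 336 bases, from 11356 to 11691 on the mitochondrial genome of WBcel235. A mitochondrial ribosomal RNA gene lies just before it, from 10403 to 11354. Whether reads of that RNA are in the count cannot be told from the table, so the ND3 level is uncertain. The 12 protein-coding mitochondrial genes together took 4.05% ± 0.0669 of counts. Cytochrome oxidase subunit genes stood at 2604 ± 42.3 TPM for mt-COX1, 2472 ± 56.5 TPM for mt-COX2 and 1995 ± 55.4 TPM for mt-COX3. The cytochrome b gene mt-CYTB stood at 2100 ± 51.4 TPM. The lowest were mt-ND2 at 9.28 ± 2.3 TPM, mt-ND6 at 20.1 ± 2.87 TPM and mt-ND4L at 21.1 ± 6.68 TPM, so levels within this genome spanned more than 100-fold even without ND3.

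Of the 70 histone genes in the table, 34 had no count in any library and 34 were detected, 48.6% each. Of all genes 25.1% had no count and 57.1% were detected. Of the detected histone genes, 22 stood in the highest 10% of detected genes. The list took 2.35% ± 0.027 of counts, and its median, zeros included, was 0.703 TPM, or 0.277 TPM without replicate 3. Of 36 histone genes that share a gene symbol with another copy 33 had no count, while 32 of 34 with a symbol of their own were detected. The sources used here do not say how reads of near-identical copies were assigned, so levels of single histone genes are uncertain.

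Maternal regulators of RNA were among the best represented groups. All 22 members of the list were detected, 12 of them in the highest 10%, and their median was 272 TPM. The zinc-finger gene pos-1, whose protein controls translation in posterior blastomeres, led at 2185, 2214 and 2154 TPM. The RNA-binding gene spn-4 stood at 1433, 1506 and 1446 TPM and mex-5, which sets up germ plasm asymmetry, at 1076, 1101 and 1102 TPM. The ranges of these 3 genes did not overlap. Members named from here on beyond the 3 highest of a list were chosen after their values were seen. The KH-domain gene mex-3 stood at 724 ± 20.2 TPM, gld-1 at 646 ± 12 TPM and the oocyte regulators oma-1 and oma-2 at 381 ± 10.8 and 475 ± 6.17 TPM. The transcriptional repressor of germline blastomeres pie-1 was at 185 ± 1.84 TPM and the nanos gene nos-2 at 162 ± 5.32 TPM. The lowest were the germline stem cell regulators fbf-1 at 17.4 ± 0.526 TPM and fbf-2 at 3.50 ± 0.705 TPM.

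Signals and factors that maternal RNA supplies to fate decisions were all detected, 18 of 18, with a median of 166 TPM, or 107 TPM when annotated exon length replaced the deposited width. The Wnt gene mom-2 stood at 313, 310 and 313 TPM, the kinase gene gsk-3 at 267, 271 and 274 TPM and the kinase gene src-1 at 265, 259 and 278 TPM. The last 2 overlapped between libraries and mom-2 lay above both. Next came the frizzled receptor gene mom-5 at 261 ± 2.23 TPM, the TCF factor pop-1 at 261 ± 2.44 TPM, the endomesoderm factor skn-1 at 249.5 ± 5.78 TPM and the caudal homolog pal-1 at 239 ± 19.4 TPM. The ranges of mom-5 and pop-1 overlapped, as did those of skn-1 and pal-1. The Notch receptor gene glp-1 was at 210 ± 9.05 TPM, and its ligand gene apx-1 at 123 ± 4.93 TPM. At the low end mes-1 stood at 29.9 ± 1.31 TPM and mom-1, needed to release Wnt, at 19.2 ± 1.22 TPM.

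Zygote polarity genes were detected in 17 of 17 cases, with a median of 138 TPM. The 14-3-3 gene par-5 led at 569, 564 and 564 TPM, followed by the GTPase genes rho-1 at 516 ± 3.76 TPM and cdc-42 at 405 ± 8.33 TPM. Members of the anterior complex were at 181 ± 3.09 TPM for par-3, 157 ± 3.37 TPM for the kinase gene pkc-3 and 130 ± 9.29 TPM for par-6. Those of the posterior cortex were lower, with the kinase gene par-1 at 57.9 ± 1.21 TPM and the RING-finger gene par-2 at 41.5 ± 0.329 TPM, below every anterior value in every library.

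Germ granule and germ lineage genes were all detected, 20 of 20, with a median of 82.1 TPM. The RNA helicase gene cgh-1 stood at 1385, 1419 and 1377 TPM and car-1, its partner in ribonucleoprotein granules, at 735 ± 9.96 TPM. The disordered granule protein genes meg-1 and meg-3 were at 232 ± 4.37 and 131 ± 4.04 TPM, the granule core gene pgl-1 at 161 ± 5.35 TPM and the helicase gene glh-1 at 60.01 ± 3.35 TPM. Small RNA pathway genes were detected in 38 of 39 cases, with a median of 66.5 TPM, led by the Argonaute genes wago-1 at 490 ± 12.4 TPM, ergo-1 at 422 ± 4.85 TPM and hrde-1 at 397 ± 8.59 TPM. The Argonautes of spermatogenesis alg-3 and alg-4 lay at the other end, at 0.178 ± 0.178 and 0.193 ± 0.127 TPM.

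Eggshell and oocyte genes ranged widely, with 13 of 16 detected and 4 in the highest 10%. Their median was 36.1 TPM, the lowest of the maternal lists when undetected members are included. Over detected members alone it was 151 TPM, and the meiosis list was then the lowest at 58.1 TPM. The chondroitin proteoglycan gene cpg-1 was at 1021, 1061 and 1031 TPM, the eggshell gene cbd-1 at 541, 571 and 572 TPM and the kinase gene mbk-2, which starts the oocyte-to-embryo transition, at 450, 438 and 438 TPM. The chitin synthase gene chs-1 was at 30.04 ± 0.437 TPM. The paternally supplied gene spe-11 and the permeability barrier gene perm-2 had no count in any library. Meiotic genes were detected in 29 of 30 cases at a median of 56.5 TPM, led by the cohesin gene him-1, which also serves mitosis, at 252 ± 3.02 TPM. The recombinase gene rad-51 was at 100.2 ± 2.09 TPM and the synaptonemal complex gene syp-1 at 62.5 ± 2.00 TPM.

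The machinery of rapid cell division was present without exception in both lists. All 31 DNA replication genes and all 54 cell cycle and spindle genes lay above the median of detected genes, with 17 and 29 of them in the highest 10%. The replication clamp gene pcn-1 stood at 1828, 1799 and 1826 TPM, the ribonucleotide reductase gene rnr-2 at 1321 ± 18 TPM and the helicase subunit gene mcm-7 at 1186 ± 18.3 TPM. In the cell cycle list cyb-3 was followed by the cyclin gene cyb-1 at 1276 ± 17.9 TPM and the kinase gene cdk-1 at 499 ± 11.3 TPM. Proteasome genes had a median of 310 TPM, with 31 of 33 in the highest 10%, and cytosolic ribosomal protein genes a median of 250 TPM, with 53 of 79. The ribosomal gene rps-18 led its list at 624, 579 and 563 TPM, and rpl-42 had no count. Constitutive chaperones had a median of 368 TPM, led by the calreticulin gene crt-1 at 2215 ± 18.6 TPM. Translation factors were all detected, 41 of 41, at a median of 207 TPM. Behind eef-1A.1 came eef-2, which moves the ribosome along, at 1228, 1210 and 1205 TPM, and eef-1G at 1174, 1207 and 1163 TPM, and their ranges overlapped. The 31 nuclear genes of oxidative phosphorylation were all detected, at a median of 246 TPM, and the 34 genes of glycolysis and the TCA cycle at 136 TPM. The ATP synthase subunit gene atp-2 stood at 1733 ± 27.3 TPM and the citrate synthase gene cts-1 at 643 ± 12.7 TPM. Tubulin and actin genes divided, with 7 of 18 in the highest 10% and 3 without a count. The alpha-tubulin gene tba-2 and the beta-tubulin gene tbb-1 stood at 1897 ± 10.3 and 1867 ± 35.3 TPM, while the alpha-tubulin genes tba-4 and tba-8 had no count.

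Genes named for early embryonic transcription covered a wide range. The list of sdz (skn-1-dependent zygotic), vet (very early transcript) and pes (patterned expression site) genes had 37 of 46 members detected, 5 with no count and a median of 30.4 TPM. The highest were vet-2 at 582, 606 and 576 TPM, vet-1 at 511, 530 and 502 TPM and vet-6 at 402, 418 and 395 TPM, in the same order in every library. The skn-1-dependent gene sdz-28 stood at 288 ± 5.11 TPM and sdz-30 at 243 ± 3.44 TPM. The early somatic transcript pes-10 was at 195 ± 5.24 TPM. The widest members without a count were pes-23 and sdz-3. The list was taken by gene name and the names rest on earlier experiments, so the level alone does not show when a member was transcribed.

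Regulators of embryonic lineages were detected in 47 of 49 cases, with a median of 33.6 TPM and 2 members in the highest 10%. With annotated exon length in place of the deposited width the median was 20.1 TPM. The zinc-finger gene die-1, which acts in morphogenesis, led at 332, 346 and 352 TPM, and the T-box gene tbx-11 followed at 195, 223 and 231 TPM. The distal-less homolog ceh-43 was at 173, 165 and 183 TPM. Replicate 1 was the lowest for the first 2 of these and replicate 2 for the third, and the ranges of these genes did not overlap. That of ceh-43 overlapped the next, tbx-9, which stood at 164 ± 6.97 TPM.

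Endoderm is specified by a series of GATA factors, and their levels differed by more than 10-fold. The earliest of these, the near-identical copies med-1 and med-2, stood at 3.73 ± 1.68 and 3.27 ± 0.576 TPM, which did not differ beyond their spread. They rest on 10, 4 and 11 and on 6, 7 and 5 counts. How reads of such copies were assigned is not known, so the 10-fold span, which rests on them, is uncertain. The next, end-1 and end-3, stood at 42.5 ± 3.19 and 12.5 ± 1.47 TPM, and end-1 was higher in every library. The gut differentiation factor elt-7 was at 41.1, 33.3 and 37.6 TPM and elt-2, which maintains gut fate, at 4.98, 6.77 and 7.35 TPM. Mesoderm and muscle factors included hlh-1, the MyoD homolog, at 37.1, 29.9 and 33.8 TPM, the SRF homolog unc-120 at 57.2 ± 3.43 TPM and hnd-1 at 83.3 ± 5.44 TPM. The mesoderm T-box gene tbx-35 was at 4.88 ± 0.997 TPM and its homeobox target ceh-51 at 84.6 ± 3.61 TPM.

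Among ectoderm and pharynx factors, the epidermal GATA gene elt-1 stood at 153, 149 and 164 TPM and lin-26, which keeps epidermal fate, at 152, 146 and 149 TPM. The exons of lin-26 overlap those of lir-1 on the same strand in the annotation, so its count is uncertain. The later epidermal GATA gene elt-3 was at 4.31 ± 0.811 TPM. The FoxA gene pha-4, the pharynx organ selector, was at 81.8 ± 2.28 TPM, and the T-box genes tbx-37 and tbx-38, which act in anterior blastomeres, at 37.9 ± 2.09 and 50.3 ± 1.97 TPM. The pharyngeal muscle factor ceh-22 had 1 count in replicate 2 and none elsewhere. Proneural factors were led by hlh-14 at 82.5 ± 4.99 TPM, ngn-1 at 67.7 ± 4.83 TPM and the NeuroD homolog cnd-1 at 53 ± 1.95 TPM, against 14 ± 1.76 TPM for lin-32. Of the Hox genes, the labial homolog ceh-13 was at 135 ± 14.3 TPM, followed by nob-1 at 22.9 ± 2.24 TPM, php-3 at 18.2 ± 4.12 TPM, lin-39 at 14.3 ± 2.1 TPM, egl-5 at 4.91 ± 1.04 TPM and mab-5 at 1.67 ± 0.853 TPM. The range of ceh-13 lay far above the others. That of nob-1 lay just above that of php-3, which overlapped that of lin-39.

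**Figure D3:**
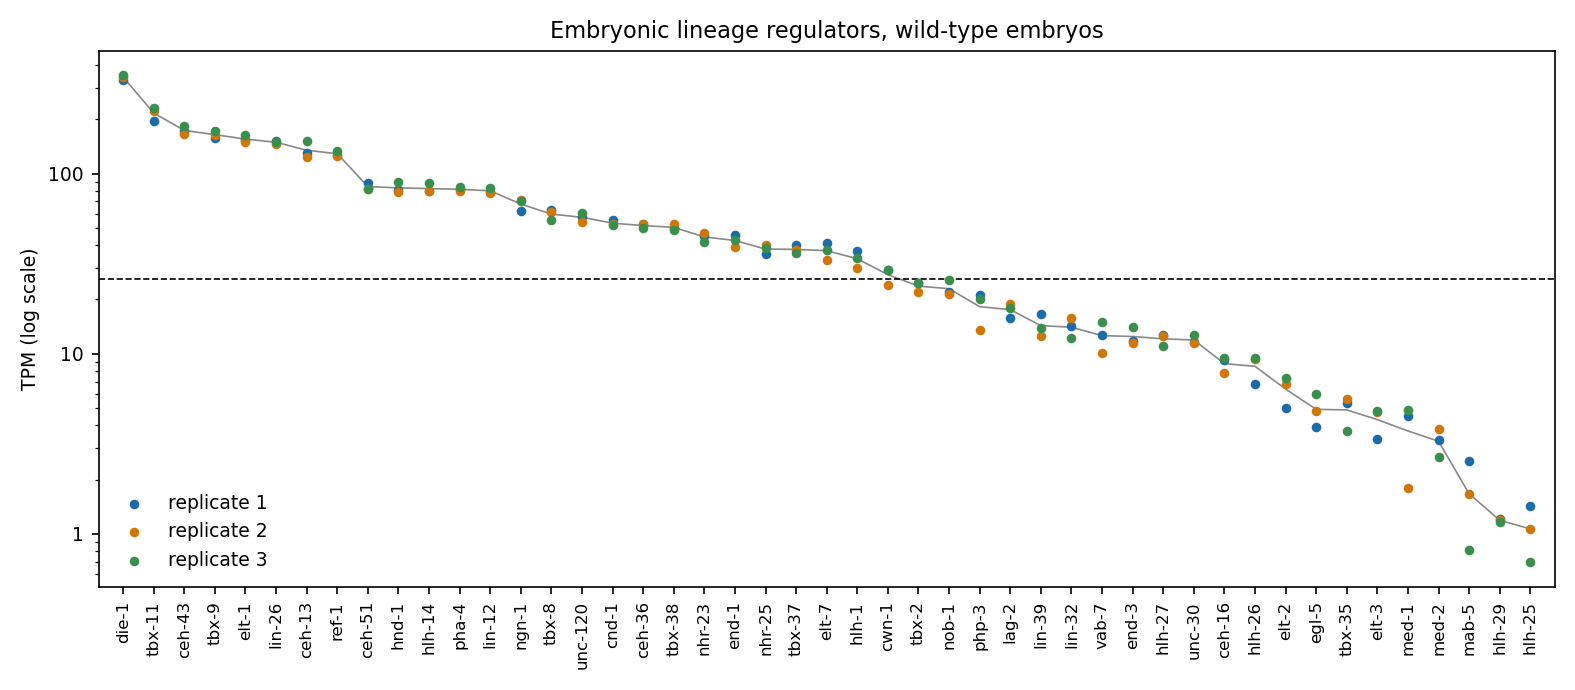
TPM (log axis) of the 47 lineage regulators detected in all 3 wild-type libraries, ordered by mean, with a point per library, the mean as a grey line and the median of detected genes (26.1 TPM) dashed. The genes run from die-1 at 343 TPM to hlh-25 at 1.07 TPM, and points of low genes are spread most.

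Tissue lists had medians below that of detected genes, and some high members. These medians include undetected members, and the median of all genes taken in the same way was 0.912 TPM. In the body wall muscle list 24 of 28 genes were detected and the list median was 1.24 TPM. Above the median of detected genes lay 7 members (25%), close to the 28.6% of all genes. Its highest members were unc-60, an actin-filament regulator with a form used outside muscle, at 322 ± 12.2 TPM, the integrin gene pat-3 at 284 ± 2.1 TPM and unc-112 at 96.2 ± 2.74 TPM. The muscle myosin genes unc-54 and myo-3 stood at 0.99 ± 0.247 and 0.147 ± 0.0387 TPM, and the troponin T gene tnt-2 had no count. The myosin light chain gene mlc-2 was higher, at 36.05 ± 1.52 TPM, though its exons overlap C36E6.2 on the opposite strand. The pharynx list had 12 of 17 detected and a median of 0.861 TPM. Its highest member was the light chain gene mlc-4, which works in cells generally, at 341 ± 6.39 TPM. Next were eya-1 at 71.0 ± 3.80 TPM and ceh-34 at 9.25 ± 1.72 TPM. The myosin genes myo-1 and myo-2 were at 0.117 ± 0.0268 and 0.175 ± 0.0241 TPM. The intestine list had 14 of 24 detected (58.3%), close to the 57.1% of all genes, and a median of 0.771 TPM. Its highest member was the ferritin gene ftn-2 at 217 ± 6.83 TPM. Behind it were mdt-28 at 113 ± 7.53 TPM and elt-7 at 37.3 ± 3.89 TPM. The brush border actin gene act-5 was at 3.83 ± 0.800 TPM and the gut esterase gene ges-1 at 1.04 ± 0.675 TPM. The lysozyme gene lys-7 had no count.

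Neuronal genes had the lowest median of the tissue lists, 0.429 TPM, against 0.912 TPM for all genes. Of 45 members 25 were detected (55.6%), close to the 57.1% of all genes. The synaptobrevin gene snb-1 stood at 387, 381 and 404 TPM, unc-119 at 102 ± 2.62 TPM and the axon guidance gene unc-33 at 74.2 ± 7.91 TPM. The synaptotagmin gene snt-1, the touch neuron gene mec-18, the GABA transporter gene unc-47 and the serotonin synthesis gene tph-1 had no count. Other genes of synaptic release and axonal transport were not at 0, with unc-18 at 40.9 ± 2.15 TPM, the syntaxin gene unc-64 at 29.4 ± 2.35 TPM and the kinesin gene unc-104 at 10.04 ± 0.446 TPM. The touch neuron gene mec-17 stood at 35.8 ± 2.76 TPM. In the annotation unc-64 and mec-17 overlap another gene on the opposite strand, and their counts are uncertain.

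Medians of the epidermal and basement membrane lists were higher, and lay between that of all genes and that of detected genes. In the epidermis and apical matrix list, with 34 of 40 detected and a median of 13.2 TPM, the adherens junction genes led, with the alpha-catenin gene hmp-1 at 145 ± 3.46 TPM, the cadherin gene hmr-1 at 123 ± 2.04 TPM and the beta-catenin gene hmp-2 at 114 ± 2.98 TPM. The apical matrix gene noah-1 was at 103, 93.9 and 105 TPM, and the collagen genes dpy-17 and sqt-3 at 72.0 ± 8.93 and 56.6 ± 4.74 TPM. Other cuticle collagen genes of the list differed, and rol-6, sqt-1, dpy-5 and dpy-13 had no count. In contrast dpy-14 stood at 48.4 ± 7.20 TPM and dpy-10 at 19.3 ± 2.32 TPM. Detected at 1.45 to 3.62 TPM were bli-2, dpy-3, dpy-2, bli-1 and dpy-7, and sqt-2 and rol-8 were detected under 1 TPM. Laminin chains stood at 229 ± 10.1 TPM for epi-1, 229 ± 10.02 TPM for lam-1 and 212 ± 10.8 TPM for lam-2, levels that overlapped, and the highest basement membrane member was the syndecan gene sdn-1 at 259 ± 9.09 TPM. The type IV collagen genes emb-9 and let-2 were at 1.92 ± 0.306 and 2.73 ± 0.650 TPM.

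Major sperm protein and yolk genes were at or near 0, while many spermatogenesis and larval genes were detected, mostly at low levels. Of 30 major sperm protein genes 24 had no count, none was detected in all libraries, and the list held 10 counts in all. How reads of similar gene copies were assigned is not known, so the zeros of this family are uncertain. The 6 vitellogenin genes, which encode yolk proteins made in the adult gut, summed to 2.57, 3.40 and 2.49 CPM. The spermatogenesis list had 14 of 27 detected (51.9%), close to the 57.1% of all genes. Its median was 0.374 TPM, against 0.912 TPM for all genes. Its highest member was the transcription factor spe-44 at 6.55 ± 0.584 TPM. The larval and molting list had 14 of 20 detected (70%) and a median of 1.33 TPM, both above the values of all genes. Above the median of detected genes were 3 members (15%, against 28.6% of all genes). They were the receptor nhr-23 at 44.5 ± 2.56 TPM, fbn-1 at 37.2 ± 3.11 TPM and mlt-10 at 32.4 ± 2.43 TPM.

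Large gene families differed in how many members went without a count. The share was above the 25.1% of all genes for chemoreceptor-type names (63.1%), C-type lectins (49.6%), col collagens (43%), neuropeptides (40.4%) and fbxa genes (30.7%). It was close to it for nuclear hormone receptors (24.5%) and for ugt and cyp genes (23.2%), and lower for ceh genes (10.9%) and fbxb genes (2.73%). Of 1340 genes with chemoreceptor-type names 846 had no count and 161 were detected. Only 4 lay above the median of detected genes: odr-8 at 64 ± 0.746 TPM, srx-96 at 56.3 ± 4.22 TPM, odr-4 at 52.3 ± 1.67 TPM and sre-4 at 28.4 ± 0.850 TPM. Both odr-4 and odr-8 encode proteins that act in receptor transport and are not receptors themselves. Of 158 col collagen genes 68 had no count, and col-90 was the highest at 41.3 ± 1.54 TPM. Among C-type lectins 126 of 254 had no count, yet clec-87 stood at 2578, 2659 and 2575 TPM, clec-88 at 982 ± 23.2 TPM and clec-266 at 674 ± 30.1 TPM. Exons of clec-88 overlap those of ctsa-4.1 on the same strand, so its count is uncertain.

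F-box genes, whose products pick substrates for ubiquitin ligases, differed by subfamily. Of 110 fbxb genes 107 were detected at a median of 37.9 TPM, led by fbxb-41 at 209, 212 and 225 TPM. Of 192 fbxa genes 77 were detected at a median of 0.190 TPM, although fbxa-215 reached 469 ± 17.5 TPM. The 54 fbxc genes lay between, with 39 detected and a median of 7.21 TPM, or 4.21 TPM with annotated exon length. Many members of these families are similar in sequence, and shared reads could move single values. Of 278 nuclear hormone receptor genes 150 were detected, led by nhr-2 at 356 ± 9.30 TPM, and 68 had no count. Neuropeptide genes were detected in 46 of 141 cases and had no count in 57. The list of potassium channel, acetylcholine receptor and related channel names had 55 of 144 detected and 41 with no count. The highest of these, nlp-36 at 68.8 ± 2.11 TPM, ins-34 at 64.5 ± 5.83 TPM and twk-49 at 129 ± 4.6 TPM, all overlap another gene on the opposite strand, so that these counts are uncertain. Of 142 ugt and cyp genes, named for glucuronosyltransferases and cytochromes P450, 73 were detected (51.4%), led by ugt-23 at 46.4 ± 3.52 TPM. Of 84 math and bath genes, related to adaptors of ubiquitin ligases, 54 were detected (64.3%), led by bath-42 at 410 ± 1.29 TPM. Of 64 ceh homeobox genes 42 were detected (65.6%), led by ceh-38 at 253 ± 8.08 TPM and ceh-39 at 226 ± 3.83 TPM.

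Most listed chromatin regulators lay above the median of detected genes, against 28.6% of all genes. All 22 genes of the DREAM and synMuv B list lay above the median of detected genes, at a median of 182 TPM, led by the histone-binding gene lin-53 at 838 ± 10.9 TPM and the remodeller let-418 at 447 ± 3.11 TPM. The HP1 gene hpl-2, mutated elsewhere in the series, stood at 126, 140 and 137 TPM, and its relative hpl-1 at 21.6, 31.5 and 29.8 TPM. The histone H3 lysine 9 methyltransferase genes met-2 and set-25 stood at 118 ± 3.57 and 103 ± 1.30 TPM. The MRG-domain gene mrg-1, at 418 ± 3.47 TPM, and the chromodomain gene cec-4, which anchors methylated chromatin at the nuclear periphery, at 346 ± 4.33 TPM, were the highest of the HP1 and H3K9 methylation list, in which 17 of 19 lay above the median of detected genes. The lowest of that list was lin-14, at 0.150, 0.299 and 0.439 TPM from 1 to 3 counts per library. It is a larval timing gene and not part of this machinery, though it was counted in the list. The dosage compensation and sex determination list had 22 of 26 above the median of detected genes, and its own median was 103 TPM. Its lowest members were the sex determination genes fog-3 at 1.95 ± 0.346 TPM and her-1 at 2.45 ± 1.44 TPM. Subunits of the dosage compensation complex were at 185 ± 7.16 TPM for dpy-27, 182 ± 3.55 TPM for dpy-21 and 127 ± 1.26 TPM for sdc-2, while xol-1, which turns the pathway to the male mode, was at 13 ± 2.02 TPM.

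Inducible heat shock genes mostly had no count or a low level. Of 13 matched members 4 had no count (30.8%, against 25.1% of all genes). Above the median of detected genes lay 1 member (7.69%, against 28.6% of all genes). The names hsp-16.1 and hsp-16.48 each matched 2 genes and were left out. How reads of similar copies were assigned is not known, so the zeros of hsp-16.11 and hsp-16.49 are uncertain. The small heat shock gene hsp-16.41 stood at 47, 27.5 and 46.6 TPM and hsp-16.2 at 19.5, 15 and 28 TPM, with replicate 2 the lowest for both. The extract protocol in the labels mentions an exposure to given temperatures for 2 h, while the treatment label gives 20 °C. How the embryos were handled before extraction is not known, and its part in these values was not tested.

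Silent genes were spread unevenly over chromosomes. Chromosome V had no count for 39.6% of its 5013 genes, chromosome III for 10.9% of 2627 and chromosome I for 14.1% of 2821. Of the 1340 genes with chemoreceptor-type names 914 lie on chromosome V. Along chromosome V silent genes made up 36% of the central stretch, from 33.3% to 66.7% of its length, and 41.6% of the outer parts. On the X chromosome the shares were 30.3% in the centre and 23.1% outside. In the gene order of WBcel235 there were 213 runs of at least 5 neighbouring genes without a count, and they held 1579 genes, 32.1% of the silent genes placed. The longest held 54 genes on chromosome V, from irld-30 to str-154, of which 18 were chemoreceptor genes and 6 pseudogenes. The next held 25 genes from clec-40 to fbxa-45, 13 of them clec genes.

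Detected genes of the X chromosome had the lowest median of the nuclear chromosomes, with chromosome V close to it. In the worm germ line X-linked genes are known to be transcribed little, and in embryos with a pair of X chromosomes the dosage compensation complex lowers X transcription. The median of detected X-linked genes was 9.59, 9.22 and 9.48 TPM in replicates 1 to 3, against 30.3, 30.7 and 30.8 TPM for autosomal genes. The ratio was 0.308 ± 0.00805 over 1451 X-linked and 9968 autosomal genes, and the X median was the lower in every library. With undetected genes included the ratio was 0.495. The X held 13.3% of genes and 7.05% ± 0.0938 of counts, while chromosome I held 13.8% of genes and 21.2% ± 0.0466. Chromosome V held 24.6% of genes and 13.1% ± 0.0323 of counts, so that its share of counts relative to genes was like that of the X. The median of its detected genes was 10.9 TPM, against 9.32 TPM for the X, and the other autosomes lay between 26.4 and 46.1 TPM. At least 100 TPM was reached by 4.75% of X-linked genes, 7.44% of those on chromosome V and 20.8% of those on chromosome I. Of all placed genes 13.7% were X-linked. Among lists with medians above that of detected genes, X-linked members numbered 0 of 31 for DNA replication and 1 of 54 for the cell cycle. They numbered 0 of 30 for meiosis, 0 of 22 for maternal RNA regulators and 4 of 20 for germ granules. Among lists with lower medians they numbered 7 of 17 for basement membrane, 7 of 28 for body wall muscle and 11 of 45 for neurons. They numbered 9 of 40 for epidermis and 2 of 24 for intestine. The shares were lowest for chemoreceptor-type names, 36 of 1340, and C-type lectins, 3 of 254, among these 7 lists.

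**Figure D4:**
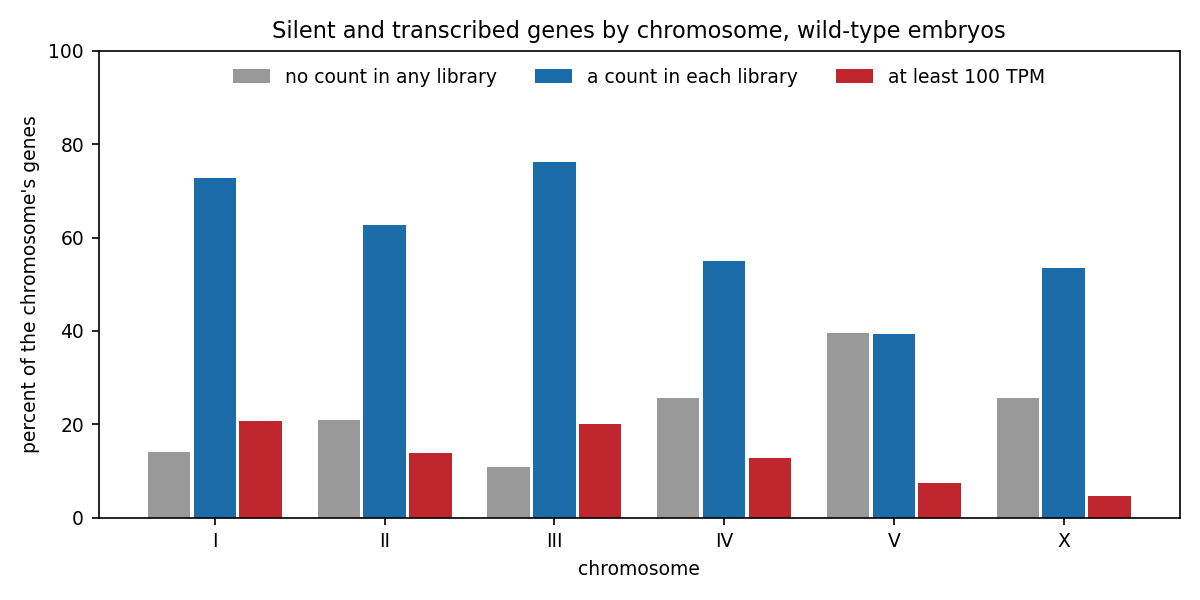
Percent of genes on each nuclear chromosome with no count in any wild-type library (grey), with a count in each (blue) and with at least 100 TPM (red). Chromosome V has the most silent genes, 39.6%, and the X the fewest at 100 TPM or more, 4.75%.

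The 3 replicates agreed closely. The chi-square of counts per degree of freedom, which is 1 for counting noise alone, was 1.2 between replicates 1 and 2, 1.17 between 1 and 3 and 1.28 between 2 and 3. All pairs therefore differed slightly beyond counting noise, and the 3 libraries were taken as 3 samples. Of 5769 genes with at least 20 CPM, 80.6% to 81.3% lay within 10% of each other in a pair, and at most 4 differed by 1.5-fold or more. The spread beyond counting noise, the square root of edgeR's common dispersion, was 1.62% in wild type. It was 3.99% over 4 hpl-2 libraries, 8.13% over 4 hpl-2-FFAA libraries and 5.0% over 3 met-2 hpl-2 libraries, the last sequenced to 14313366 counts or more. The labels do not say whether the wild-type libraries came from separate cultures, so this spread may be technical.

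Few genes were called as varying more than counting allows. A call depends on the count as well as on the spread, and mt-ND3 was called at a highest over lowest ratio of 1.03. The number called is therefore not the number of genes that vary. Among 8373 genes past edgeR's low-count filter 26 were called, or 0.311%, by a chi-square test of the 3 counts at a Benjamini-Hochberg adjusted p under 0.05, and 697 (8.32%) had an unadjusted p under 0.05. The median ratio of the highest to the lowest library among the 26 was 1.12. They included mt-ND3, mt-ATP6 and mt-ND1, the histone genes his-64, his-24 and his-60, and the laminin genes epi-1, lam-3 and lam-2. The fatty acid synthase gene fasn-1 stood at 548, 488 and 573 CPM and the cadherin gene cdh-4 at 1897, 1737 and 1866 CPM, with replicate 2 lowest in both. Replicate 2 was the lowest in 17 of the 26. Without replicate 2 the count was 4, without replicate 3 it was 14 and without replicate 1 it was 21, all from 2 libraries only. The largest ratio among them was that of F23A7.8, at 31, 22.4 and 16.7 CPM, highest over lowest 1.85. Summed CPM of the basement membrane list was 3830, 3560 and 3830 and that of the maternal RNA regulators 10330, 10632 and 10402, so replicate 2 was lowest in the first and highest in the second.

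**Figure D5:**
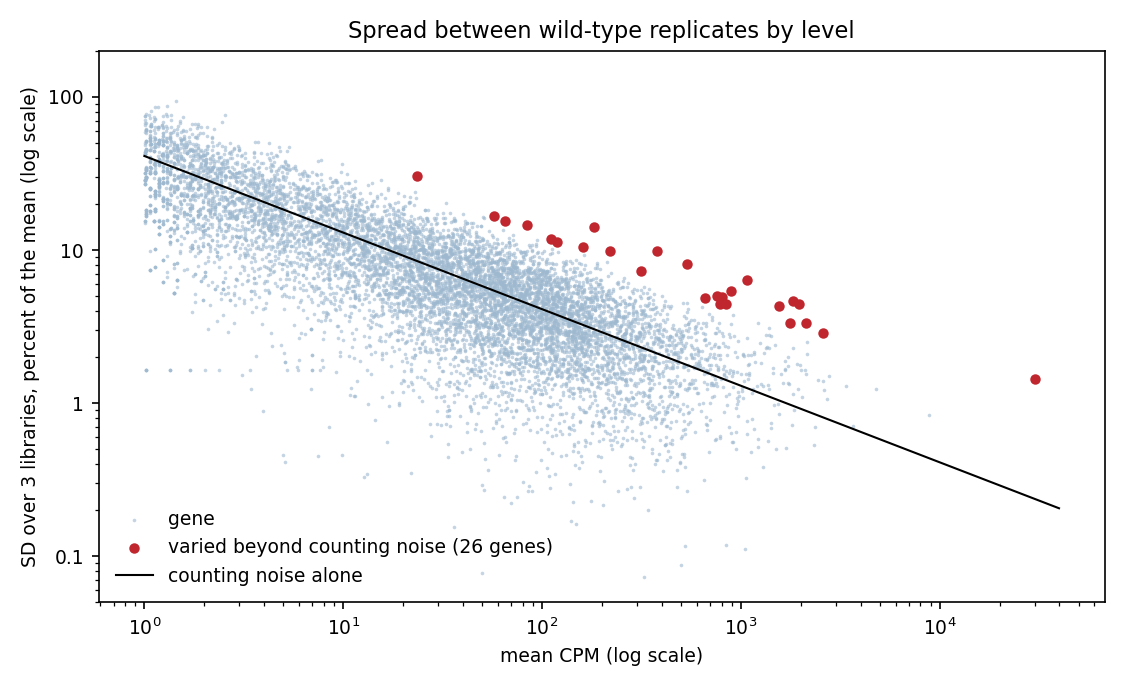
SD over 3 wild-type libraries in percent of the mean, against mean CPM (both log axes), for genes of at least 1 CPM. The line is counting noise alone and red points are the 26 genes called as varying beyond it. Most genes follow the line, from 30.4% (root mean square) at 1 to 5 CPM to 1.94% above 1000 CPM, where counting noise alone gives 1.08%.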

How the data were processed

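The table deposited by the authors holds raw counts per gene and the gene width in bases. Libraries came from total RNA depleted of ribosomal RNA with a stranded kit, per the labels' protocols. Trimmomatic 0.39 and genome build ce10 are named in the submitters' processing notes. The sources used here give no aligner, counting program, use of strand or annotation. Values of overlapping, antisense and near-identical genes are therefore uncertain.

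Each count was divided by its library total (CPM), or by width and scaled to a sum of 1000000 (TPM), with pandas 2.3.3. No TMM scaling entered these levels. Names, gene types and chromosomes came from annotation of WBcel235, which held 19870 of the 20392 identifiers. Its positions were not converted to ce10. Deposited widths were within 5% of the annotated exons for 53.6% of genes. In all, 46 gene lists were described by counts and medians, and 12 listed names did not match a single gene. The planned rule named the 20 highest genes by CPM and by TPM, hpl-2 and met-2. From each list it took the 3 highest and up to 2 widest undetected members. It also took detected lineage regulators, the 10 most variable genes of at least 20 CPM and the 10 highest outside lists. Other genes named in the results were chosen after their values were seen. Members and lists were chosen with earlier results of these data known. Replicates were compared with chi-square tests (scipy 1.17.1), adjusted over all 8373 genes tested, and with edgeR 4.0.16 under R 4.3.3. The chi-square script was tested on simulated data. DESeq2 1.42.0 gave alternative size factors. Other settings tried are given in the closing section.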

Additional observations from a re-analysis of the deposited data

How the results depend on the processing

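Genes without a count numbered 8313 when up to 3 counts in all were allowed. The 100 most abundant genes took 22.5% when measured per kilobase and 16.9% without mitochondrial genes. The X to autosome ratio was 0.495 with silent genes included and 0.365 by CPM, and with annotated exon length in place of the deposited width, an alternative chosen after seeing the data, it was 0.302. Leaving out each library in turn gave ratios of 0.277 to 0.282, since a gene then needs counts in only 2 libraries to enter. Over the same settings the replicate spread was 1.33% to 1.90% and 4 to 21 genes were called as varying beyond counting noise. The number called was 20 without the low-count filter and 26 with DESeq2 or library-size scaling. Detected genes numbered 8417 at 10 counts or more, 15277 with a count in any library and 11625 after thinning to the smallest total. Of 46 list medians, 23 lay above the median of detected genes, and 22 to 25 under the alternatives. With detected members alone 23 of 45 medians moved by over 1.5 times, as lists with many silent members must. With annotated exon length 4 of 46 moved that far, all downward: maternal fate signals to 107, lineage regulators to 20.1, fbxc to 4.21 and inducible heat shock to 0.242 TPM. Leaving out a library took the C-type lectin median from 0.0533 TPM to 0, and without replicate 3 those of col collagens went to 0, histones to 0.277 and inducible heat shock to 0.594 TPM. No paired analysis was possible because no result compares groups. The planned search for promoter motifs was not run, for want of a genome sequence here. Depth limits genes under about 1 CPM, which rest on a few counts.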

Other observations

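Related genes often differed in level by far more than the replicates did. The pairs that follow were chosen after their levels were seen, and how reads of similar copies were assigned is not known. The elongation factor gene eef-1A.1 stood at 24.3 ± 0.733 times eef-1A.2 per length (SD, n = 3), and the aldolase gene aldo-2 at 24.4 ± 2.00 times aldo-1. The cyclin gene cyb-1 stood at 9.32 ± 0.167 times cyb-2.1, and the Argonaute gene alg-2 at 5.04 ± 0.133 times its relative alg-1. The germ plasm regulators mex-5 and mex-6 were closer, at a ratio of 1.67 ± 0.0434, as were oma-1 and oma-2 at 0.803 ± 0.0158. The ratio of end-1 to end-3 was 3.85, 3.44 and 3.02 in replicates 1 to 3. For med-1 and med-2 it was 1.37, 0.470 and 1.81, and so was not fixed in direction.

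Most of the 10 genes of highest spread among those with at least 20 CPM were near that lower bound. After F23A7.8 they were T12C9.7 at 22.9, 22.6 and 14.9 CPM, and an identifier without a name in the annotation. The immunoglobulin-family gene wrk-1 stood at 20.4, 19.2 and 29.2 CPM and the hemidesmosome gene let-805 at 20.5, 20.1 and 29 CPM, with replicate 3 highest in both. The collagen gene col-121 stood at 32.5, 26.2 and 39.5 CPM. Apart from F23A7.8, none of the 10 was called by the chi-square test after adjustment.

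Name families of at least 20 genes outside the lists ranged from nearly silent to fully detected. Of 37 pals genes 24 had no count, as did 23 of 29 fipr genes. In contrast all 26 npp nucleoporin genes were detected, at a median of 154 TPM, and all 20 mdt Mediator genes, at a median of 116 TPM. All 40 mrpl and 29 mrps mitochondrial ribosomal protein genes were detected too, at medians of 44.6 and 46.1 TPM.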
